A study of Mus musculus with 15 samples.

Results

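The microtubule genes of large sensory neurons were followed in 5 groups of mouse arrays. The genes were those whose symbol begins with Tuba, Tubb, Tubg, Stmn, Dync or Dctn, or with Kif and a digit, together with Map1a, Map1b, Map2 and Mapt. There were 80 of them among 19938 genes tested, each represented by 1 probe set, the one with the highest mean over all arrays. They comprised 6 alpha tubulins, 7 beta tubulins, 7 gamma tubulins and gamma complex proteins, 5 stathmins (with the stathmin domain gene Stmnd1), 38 kinesins (with the pseudogene Kif4-ps), 7 dynein subunits, 6 dynactin subunits and 4 microtubule-associated proteins. No value was available for Tuba1b, Tuba1c or Tubb4b, because 7 probe sets that name several tubulins or a tubulin and another gene were left out.

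All mice were C57BL/6 and carried green fluorescent protein under the promoter of CGRP, the calcitonin gene-related peptide. Cells of dorsal root ganglia at lumbar levels 2 to 5 on the injected side were dissociated, and neurons wider than 26.9 µm were sorted by the fluorescent protein and by a wheat germ agglutinin tracer given 5 days before into the gastrocnemius muscle or the saphenous nerve. Amplification started from 50 ng of total RNA. The muscle groups were CGRP-negative neurons projecting to muscle, from mice whose muscle was injected with saline (Saline muscle), acid (Acid muscle) or CFA (CFA muscle). The paw groups were CGRP-positive neurons projecting to skin, from mice whose paw was injected with saline (Saline paw) or CFA (CFA paw). CFA is given only as this abbreviation, in a study titled for inflammation in vivo. Each group had 3 biological replicates, and the saline groups were the controls. Whether a replicate was 1 animal or a pool, and the age of the mice, is not given in the sources used here. Paw and muscle groups differed at once in the tissue the neurons reach, in CGRP, and in where injection and tracer were given, and these cannot be told apart.

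Microtubules are hollow polymers of alpha and beta tubulin, which gamma tubulin complexes help to start. Sensory neurons keep long axons that depend on them: stathmins bind free tubulin and favour disassembly, tau (Mapt) and the MAP proteins bind the polymer, kinesins mostly carry cargo toward the axon terminal, and dynein with its activator dynactin carries cargo back to the cell body. Several kinesins instead act on the spindle of dividing cells, and mature neurons do not divide.

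The arrays themselves differed in signal range, and the microtubule genes moved with it. The SD of the log2 values over all genes that are not among the 80 was 1.28 to 1.55 on the 9 muscle arrays and 1.65 to 1.79 on 5 of the 6 paw arrays. The array of Saline paw replicate 1 stood apart from the other paw arrays at 1.42, within the muscle range. A gene was counted as above a dim limit when its mean over all 15 arrays exceeded 2.44, the 95th percentile of 1194 olfactory and vomeronasal receptor genes, and 59 of the 80 members and 13419 of all genes were above it. Measured as the median deviation of those 59 members from their own means, the paw arrays stood at 0.336 to 0.752, except Saline paw replicate 1 at -0.126. The muscle arrays stood between -0.662 on Acid muscle replicate 2 and 0.00317 on Acid muscle replicate 3. Saline paw replicate 1 was the lowest paw array for 42 of the 80 members, Acid muscle replicate 2 the lowest muscle array for 21, and Acid muscle replicate 3 the highest muscle array for 23. Whether the signal range contributed to the differences below was not tested, and values without Saline paw replicate 1 are given beside those of the main members whose call changes. Without that array every paw array had a wider range than every muscle array. In those values signal range and paw or muscle origin cannot be told apart.

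**Figure D1:**
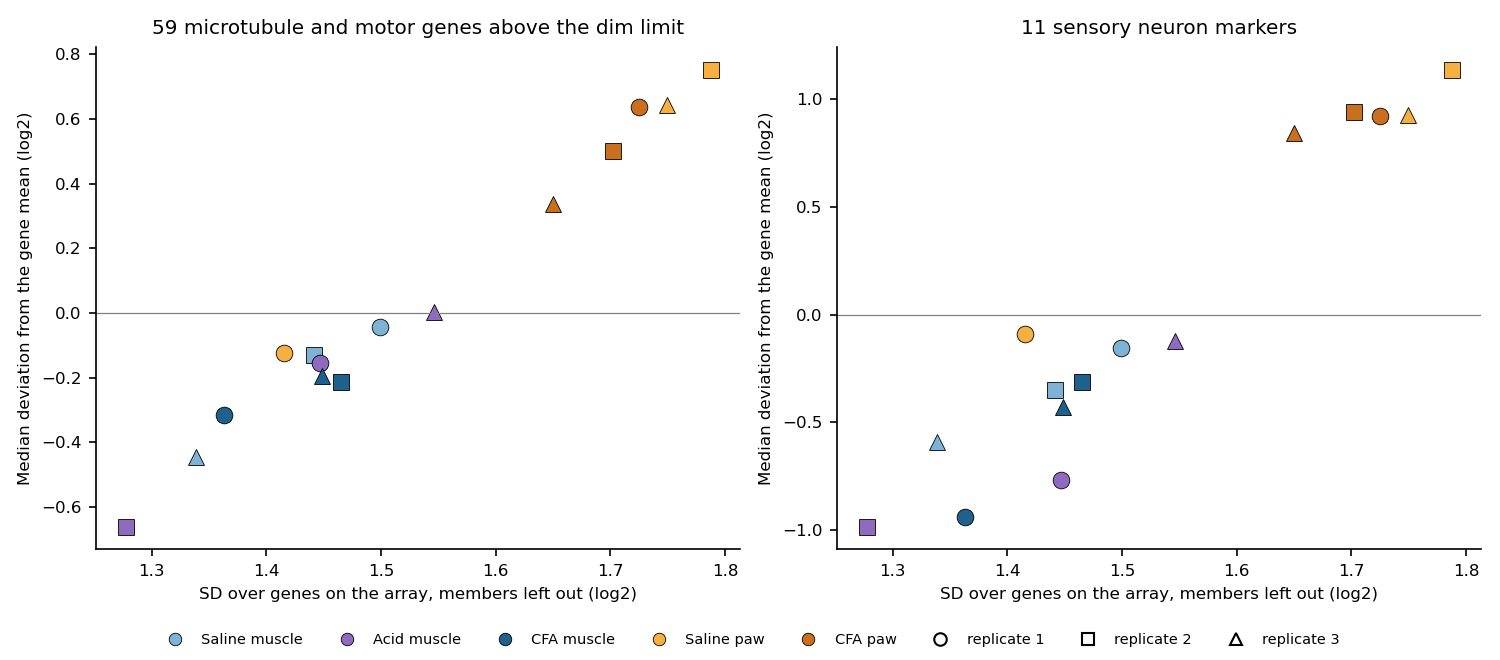
Each point is 1 of the 15 arrays, with the SD of log2 values over genes that are not members on the x axis and, on the y axis, the median log2 deviation from the gene means of the 59 members above the dim limit or of 11 sensory neuron markers. Arrays with a wider signal range had higher member levels, and Saline paw replicate 1, with an SD of 1.42, lies among the muscle arrays.

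Paw neurons had higher levels of part of the microtubule genes than muscle neurons, and no member passed the test in the other direction. After saline, 4 of the 80 members were higher in paw than in muscle at an adjusted p under 0.05 (limma, Benjamini-Hochberg over all genes), where 1.87% of all genes tested were higher. They were Tubb4a, Mapt, Stmn2 and Map1b. After CFA, 17 members were higher, with 5.75% of all genes as background. All of these members lay above the dim limit, where 2.76% of genes were higher after saline and 8.46% after CFA. No member was lower in either comparison, where 0.171% of all genes were lower after saline and 0.667% after CFA. The comparisons share no arrays but use the same estimate of the spread, and the 4 genes higher after saline were among the 17 higher after CFA. All 17 had a difference above 0 after saline.

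The remaining members gave a mixed picture. The median difference over the 80 members, paw minus muscle, was 0.18 on the log2 scale after saline and 0.20 after CFA, beside -0.016 and -0.041 over all genes tested. In each comparison 53 members had a difference above 0, with 47.7% of all genes above 0 after saline and 43.8% after CFA. Above the dim limit it was 49 and 47 of 59 members, beside 60.3% and 55.2% of genes. The groups did not overlap and paw was higher for 13 members after saline, beside 8.11% of all genes, and for 34 after CFA, beside 18.9%. Above the dim limit these were 12 and 34 members, beside 1521 and 3652 of 13419 genes. Muscle was higher without overlap for 4 members after saline, beside 7.06% of all genes, and for 11 after CFA, beside 17.1%. At an unadjusted p under 0.05 there were 26 members after saline, beside 16.9% of all genes, and 39 after CFA, beside 20.8%. The 95% confidence interval of the difference lay within 1 log2 unit of 0 for 45 members after saline and for 41 after CFA.

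**Figure D2:**
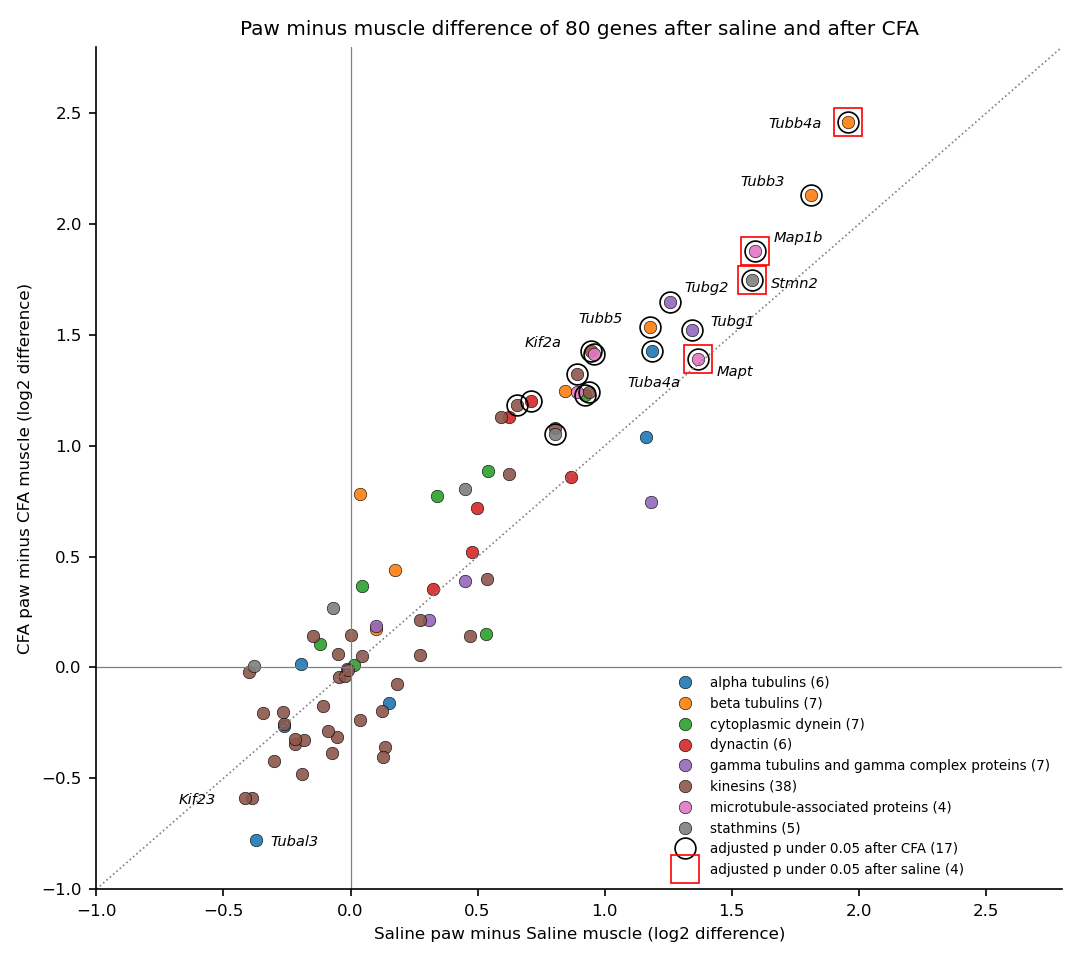
Each of the 80 members is plotted by its log2 difference, paw minus muscle, after saline (x axis) and after CFA (y axis), coloured by class. Circles ring the 17 members past the threshold after CFA and squares the 4 past it after saline, all of which lie above 0 on both axes, with Tubb4a farthest from the origin at 1.96 and 2.46.

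The counts moved with Saline paw replicate 1. Without it, 35 members were higher in Saline paw than in Saline muscle and none was lower, while 19.2% of all genes were then called in either direction. The CFA comparison, which does not contain that array but shares its estimate of spread, then had 29 members higher and 3 lower (Kif19a, Kif23 and Kif2c), with 13% of all genes called. The 12 added to the 17 higher members were Tuba1a, Tubb2a, Tubb2b, Stmn1, Map1a, Kif5a, Kif5c, Kif21a, Dync1h1, Dync1li2, Dctn2 and Dctn3. All 6 paw arrays were above all 9 muscle arrays for 4 members (Tubb4a, Mapt, Stmn2 and Dync1li1), beside 2.44% of all genes. With Saline paw replicate 1 set aside, the other 5 paw arrays were above all muscle arrays for 27 members, beside 11.3% of all genes, and below all of them for 5, beside 5.02%.

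Among the alpha tubulins, which form the polymer with beta tubulin, only Tuba4a passed the threshold, and only in the CFA comparison. Its level was 8.39, 7.93 and 7.70 on the CFA paw arrays and 6.65, 6.46 and 6.63 on the CFA muscle arrays. These did not overlap, and the difference was 1.43 (SE 0.331, n = 3 arrays per group, 2.69-fold, limma adjusted p = 0.0192). After saline it was 6.95, 8.39 and 8.40 in paw and 7.04, 6.34 and 6.80 in muscle, so Saline paw replicate 1 lay within the muscle range, and the difference of 1.19 did not pass (adjusted p = 0.0828). Without that array it was 1.67 (adjusted p = 4.5e-04).

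Tuba1a, a major alpha tubulin of neurons, was 10.95, 10.84 and 10.48 in CFA paw against 9.65, 9.81 and 9.68 in CFA muscle. The groups did not overlap, but the difference of 1.04 missed the threshold (limma adjusted p = 0.0907), as did 1.16 after saline (adjusted p = 0.0989). Both passed without Saline paw replicate 1 (1.04, adjusted p = 0.0428, and 1.41, adjusted p = 0.0134) or without Acid muscle replicate 3 (adjusted p = 0.0414 and 0.0467). Under other scalings the CFA difference was 0.006 with quantile normalization, -0.18 with cyclic loess and -0.13 with division by the array SD, so its direction depended on the scaling. The other 4 alpha tubulins, Tuba3a, Tuba3b, Tuba8 and Tubal3, had differences from -0.78 (Tubal3) to 0.02 after CFA, and none passed. As the alpha and beta tubulins have near-identical copies, a probe set may also take up RNA of a close relative.

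As deposited, all 7 beta tubulins were above 0 in both comparisons, with a median of 0.84 after saline and 1.25 after CFA, and 1 and 3 members past the threshold in paw. Tubb4a, a beta tubulin found mainly in nervous tissue, was 9.85, 10.93 and 10.87 in Saline paw and 10.95, 10.65 and 10.79 in CFA paw. In Saline muscle it was 8.75, 8.54 and 8.49, in CFA muscle 8.19, 8.29 and 8.51, and in Acid muscle 8.39, 8.28 and 8.40. All paw arrays were thus above all muscle arrays, with Saline paw replicate 1 the lowest of them. The mean was 10.55 ± 0.61 (SD, n = 3) in Saline paw and 8.60 ± 0.13 in Saline muscle, a difference of 1.96 (95% confidence interval 1.47 to 2.44, 3.88-fold, limma adjusted p = 0.00108). After CFA the means were 10.79 ± 0.15 and 8.33 ± 0.16, a difference of 2.46 (1.98 to 2.94, 5.51-fold, adjusted p = 8.0e-05). Without Saline paw replicate 1 the saline difference was 2.31 (adjusted p = 1.4e-06).

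Tubb3, the beta tubulin used as a marker of neurons, was 7.91, 9.12 and 9.10 in Saline paw and 8.96, 8.97 and 8.80 in CFA paw. It was 7.19, 6.76 and 6.74 in Saline muscle and 6.73, 6.86 and 6.73 in CFA muscle, so neither pair of groups overlapped. In Acid muscle it was 7.12, 6.58 and 9.04, the last array reaching the paw range. The difference after CFA was 2.13 (SE 0.466, 4.39-fold, limma adjusted p = 0.0143), while 1.81 after saline did not pass (adjusted p = 0.0598). Without Saline paw replicate 1 the latter was 2.21 (adjusted p = 0.00509), and without Acid muscle replicate 3, which enters only through the shared spread, it was 1.81 (adjusted p = 0.00473).

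Tubb5, a widely expressed beta tubulin, was 10.14, 9.80 and 9.52 in CFA paw and 8.09, 8.41 and 8.36 in CFA muscle. The groups did not overlap, and the difference was 1.53 (SE 0.323, 2.90-fold, limma adjusted p = 0.0116), against 1.18 after saline (adjusted p = 0.0776), which was 1.64 without Saline paw replicate 1 (adjusted p = 5.0e-04). Tubb2a and Tubb2b differed by 1.25 and 0.78 after CFA without passing (adjusted p = 0.0787 and 0.154), although neither overlapped between the CFA groups. Tubb6 differed by 0.17 and Tubb1, best known from platelets, by 0.44, and both overlapped between the groups. For Tubb2b and Tubb6 the direction depended on the scaling. With quantile normalization Tubb2b was 5.78, 6.34 and 6.55 in Saline paw and 6.35, 6.84 and 6.81 in Saline muscle. Tubb6 was then 4.92, 4.57 and 4.51 in CFA paw and 5.27, 4.56 and 4.48 in CFA muscle. Tubb3 and Tubb4a stayed higher in paw without overlap in both comparisons.

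The promoters of the 2 beta tubulins with the largest differences are shown because both genes were higher in paw neurons while their upstream sequences differ in the searched motifs. Each run is the 250 bases before the annotated start, from RefSeq on GRCm38.p6, read 5′ to 3′ on the gene's strand. Tubb4a lies on the minus strand with its window at chr17:57087601-57087850, and Tubb3 on the plus strand at chr8:123411303-123411552. Capitals mark matches, on either strand, to the TATA box letters TATAAA, the box CCAAT (on the other strand ATTGG), the GC box GGGCGG, the cyclic AMP response palindrome TGACGTCA or the palindrome bound by NRF1.
Tubb4a: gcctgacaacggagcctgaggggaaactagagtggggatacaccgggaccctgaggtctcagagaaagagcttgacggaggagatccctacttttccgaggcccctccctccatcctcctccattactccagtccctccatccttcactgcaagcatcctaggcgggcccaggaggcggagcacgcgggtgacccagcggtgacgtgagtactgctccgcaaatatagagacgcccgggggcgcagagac
Tubb3: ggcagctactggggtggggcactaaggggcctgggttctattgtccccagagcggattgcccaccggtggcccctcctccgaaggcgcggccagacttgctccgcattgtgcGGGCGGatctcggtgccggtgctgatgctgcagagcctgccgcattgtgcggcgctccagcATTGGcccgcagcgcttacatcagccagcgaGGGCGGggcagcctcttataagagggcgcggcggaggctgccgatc
The Tubb4a window held none of the 5 motifs at a GC content of 61.6%. The Tubb3 window, at 68% GC, held 1 CCAAT and 2 GGGCGG matches. Over 32851 RefSeq promoters of the same length, GGGCGG occurred in 32.7%, CCAAT in 33.8%, TATAAA in 12.4%, the NRF1 palindrome in 3.74% and TGACGTCA in 1.55%. Of the members, 61 genes with 67 promoters were in the table, and GGGCGG occurred in 50.7% of these, CCAAT in 38.8%, TATAAA in 10.4%, the NRF1 palindrome in 8.96% and TGACGTCA in 5.97%. Overlaps between motifs were not removed, and these shares describe letters only.

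Among the gamma tubulins and their complex, which nucleate microtubules, both gamma tubulins were higher in paw after CFA. Tubg1 was 7.16, 6.74 and 6.82 in CFA paw and 5.05, 5.47 and 5.63 in CFA muscle, without overlap, a difference of 1.52 (SE 0.347, 2.87-fold, limma adjusted p = 0.0176). Tubg2 was 6.46, 6.28 and 6.87 against 4.66, 5.17 and 4.84, also without overlap, a difference of 1.65 (SE 0.401, 3.14-fold, adjusted p = 0.0246). After saline they differed by 1.34 and 1.26 and did not pass (adjusted p = 0.0618 and 0.127), with Saline paw replicate 1 at 5.97 and 5.48. Without that array the differences were 1.74 and 1.67 (adjusted p = 0.00188 and 0.00782). The 5 complex proteins Tubgcp2 to Tubgcp6 did not pass in either comparison, and 4 of them were above 0 in both, with Tubgcp4 at 1.18 after saline and 0.75 after CFA and Tubgcp5 at -0.01 in both.

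The stathmins, which bind free tubulin, had 1 member past the threshold after saline and 2 after CFA. Stmn2, the stathmin linked to axon growth and repair, was 11.67, 11.41 and 11.29 in CFA paw and 10.62, 11.57 and 11.55 in Saline paw. It was 9.47, 9.89 and 9.77 in CFA muscle, 10.05, 9.76 and 9.19 in Saline muscle and 9.72, 8.97 and 10.47 in Acid muscle. The paw arrays were above every muscle array, the nearest being Saline paw replicate 1 and Acid muscle replicate 3. The difference was 1.58 after saline (95% confidence interval 0.86 to 2.31, 2.99-fold, limma adjusted p = 0.0305) and 1.75 after CFA (1.02 to 2.47, 3.36-fold, adjusted p = 0.0079).

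Stmn3, a stathmin relative of neurons, was 9.32, 9.16 and 8.98 in CFA paw and 8.07, 8.08 and 8.15 in CFA muscle. Those groups did not overlap, and the difference was 1.05 (SE 0.267, 2.07-fold, limma adjusted p = 0.0300). A further probe set of Stmn3 lay under the dim limit, with a mean of 1.61, and was not used. After saline Stmn3 differed by 0.80 (adjusted p = 0.141), with Saline paw replicate 1 at 8.38 within the Saline muscle range of 8.14 to 8.39, and by 1.15 without that array (adjusted p = 0.00254). With quantile normalization Stmn3 was 8.60, 8.78 and 8.69 in Saline paw and 8.62, 8.65 and 8.74 in Saline muscle. Stmn1 differed by 0.80 and Stmn4 by 0.27 after CFA, and neither passed. Stmnd1 lay under the dim limit and differed by 0.01.

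All 4 microtubule-associated proteins were above 0 in both comparisons, with medians of 1.16 after saline and 1.40 after CFA, and 2 and 3 of them passed. Mapt, which encodes tau, was 6.12, 6.76 and 6.89 in Saline paw, 6.80, 6.90 and 6.46 in CFA paw, 5.49, 5.35 and 4.82 in Saline muscle, 5.28, 5.31 and 5.40 in CFA muscle and 5.57, 4.96 and 5.65 in Acid muscle. All paw arrays lay above all muscle arrays. The difference was 1.37 after saline (SE 0.236, 2.58-fold, limma adjusted p = 0.00982) and 1.39 after CFA (2.62-fold, adjusted p = 0.0036).

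Map1b, an axonal protein that stabilises growing microtubules, was 11.20, 11.80 and 11.70 in Saline paw and 10.47, 9.91 and 9.55 in Saline muscle. In CFA paw it was 11.80, 11.64 and 11.64 and in CFA muscle 9.26, 10.11 and 10.07, so neither pair overlapped. In Acid muscle replicate 3 it reached 11.20, level with Saline paw replicate 1, beside 9.80 and 9.76 in the other Acid muscle arrays. The difference was 1.59 after saline (SE 0.352, 3.01-fold, limma adjusted p = 0.0349) and 1.88 after CFA (3.68-fold, adjusted p = 0.0064). Map2, a protein of dendrites and cell bodies, differed by 1.41 after CFA (adjusted p = 0.0388) and by 0.96 after saline (adjusted p = 0.212), or 1.36 without Saline paw replicate 1 (adjusted p = 0.0163). Map1a, the relative of Map1b that is typical of mature neurons, differed by 1.24 after CFA and narrowly missed the threshold (adjusted p = 0.0563).

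The promoter window of Map1b is shown for comparison with the tubulins, since this gene passed in both comparisons and its window carries a TATAAA. It lies on the minus strand at chr13:99516603-99516852 of GRCm38.p6, with the same conventions.
Map1b: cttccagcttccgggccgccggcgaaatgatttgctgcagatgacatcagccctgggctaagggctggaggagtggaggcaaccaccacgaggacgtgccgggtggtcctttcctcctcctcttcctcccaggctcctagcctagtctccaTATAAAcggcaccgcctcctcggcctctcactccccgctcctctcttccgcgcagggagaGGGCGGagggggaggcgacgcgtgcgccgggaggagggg
It held 1 match to TATAAA, the TATA box letters, and 1 GC box match, at a GC content of 66.4%. Of the 17 members higher after CFA, 13 had an entry, with 16 promoters, of which 56.2% held the GC box, 25% the box CCAAT, 18.8% the NRF1 palindrome and 6.25% the TATA box letters.

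**Figure D3:**
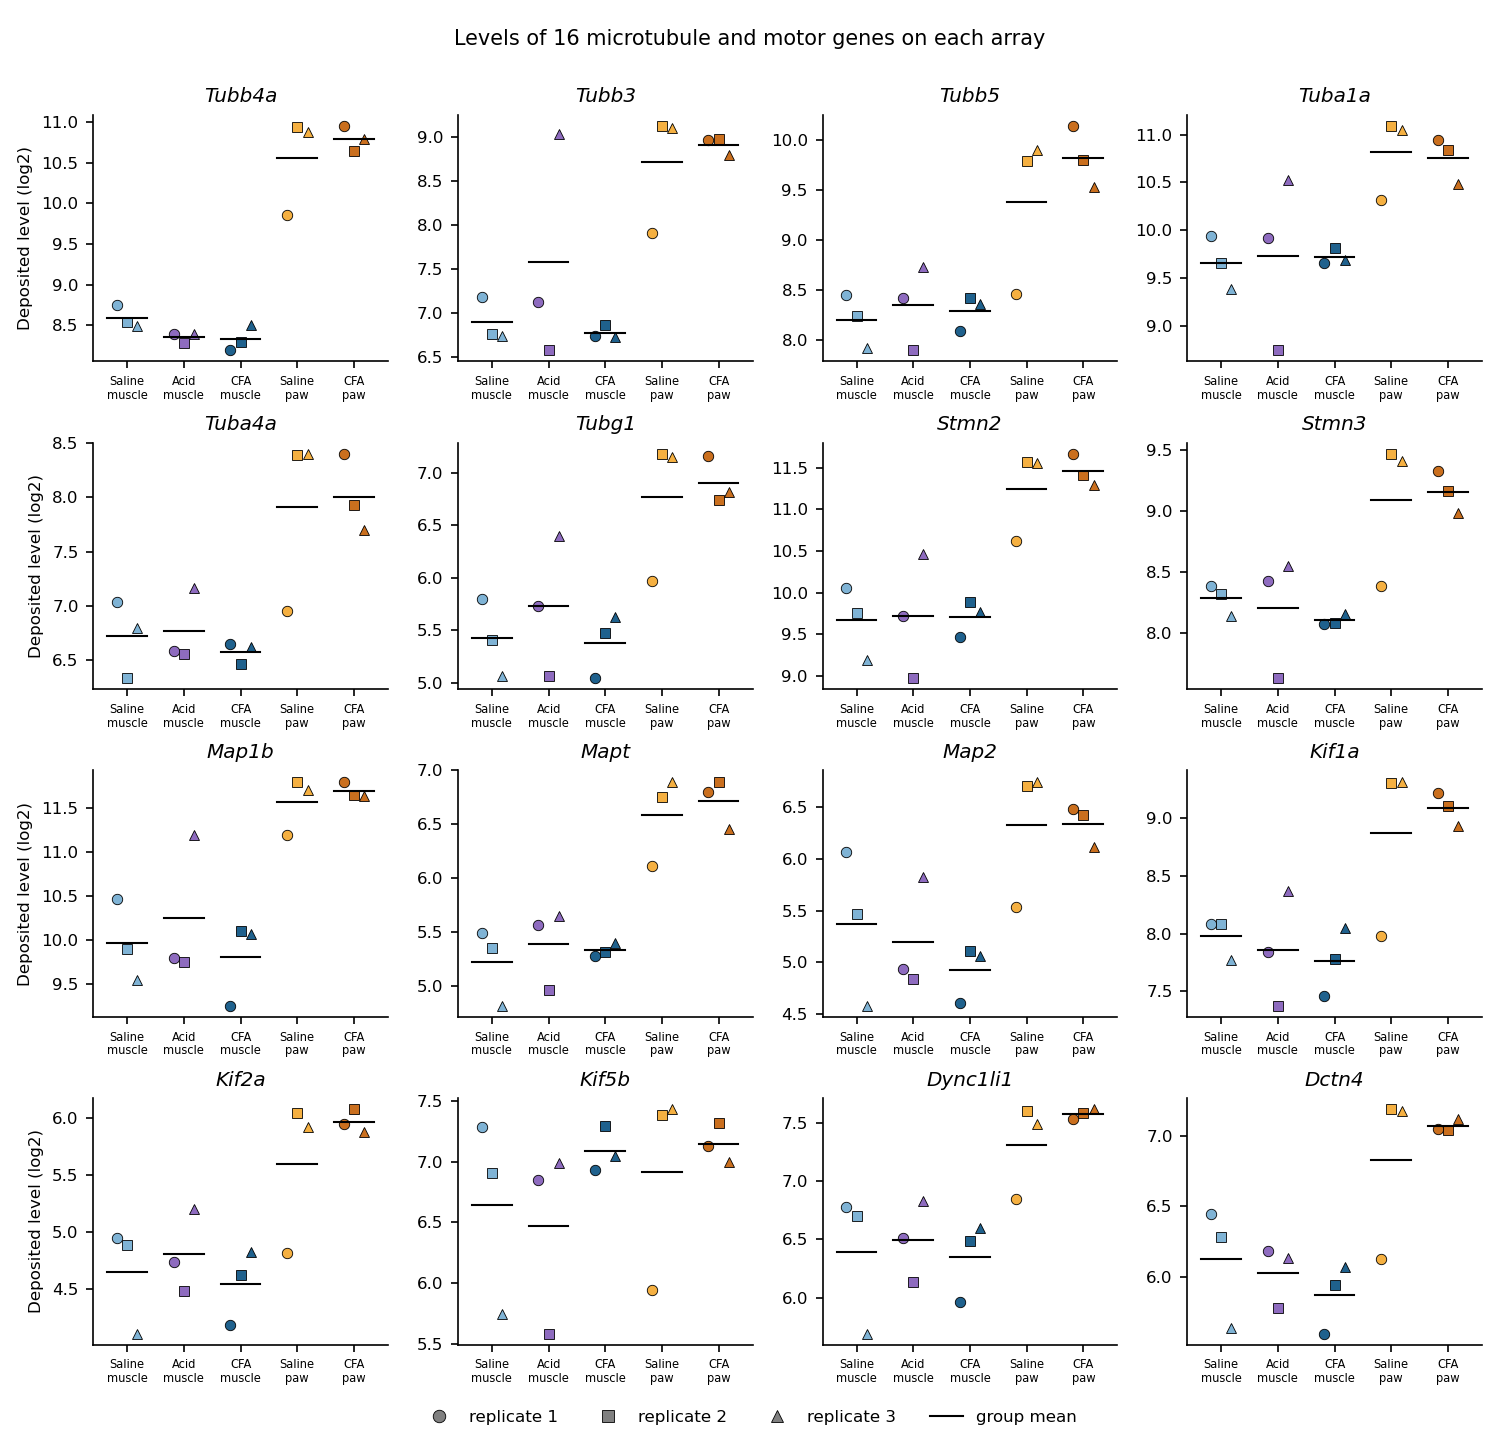
Deposited log2 level on every array (points) and group mean (lines) for 16 members, in the 5 groups. The paw points lie above all muscle points in 4 panels (Tubb4a, Mapt, Stmn2 and Dync1li1), and in most others the lowest paw point is Saline paw replicate 1.

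The kinesins divided by level. After CFA, 4 of 38 were higher in paw (Kif2a, Kif3c, Kif1a and Kif1b), after saline 0 passed, with 8 of the 38 at an unadjusted p under 0.05, and the class median was near 0 in both (-0.015 and -0.058). Kif1a, the motor for synaptic vesicle precursors, was 9.22, 9.11 and 8.93 in CFA paw and 7.46, 7.78 and 8.05 in CFA muscle, without overlap. The difference was 1.32 (SE 0.317, 2.50-fold, limma adjusted p = 0.0231), against 0.89 after saline (adjusted p = 0.171), where Saline paw replicate 1 was 7.98 and the Saline muscle arrays were 7.77 to 8.09. Without that array the saline difference was 1.33 (adjusted p = 0.00201). Its close relative Kif1b differed by 1.24 after CFA (adjusted p = 0.0315).

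Kif2a, which depolymerises microtubule ends and trims axon branches, was 5.95, 6.08 and 5.88 in CFA paw and 4.18, 4.62 and 4.82 in CFA muscle. The groups did not overlap, and the difference was 1.43 (SE 0.310, 2.69-fold, limma adjusted p = 0.0138). Kif3c, a neuronal subunit of kinesin-2, differed by 1.18 (adjusted p = 0.0210), while the kinesin-2 subunits Kif3a and Kif3b differed by 0.40 and 0.14 (adjusted p = 0.501 and 0.639). Among the conventional kinesin heavy chains, Kif5c differed by 1.13 (adjusted p = 0.067), Kif5a by 0.87 (adjusted p = 0.120) and Kif5b by 0.06 (adjusted p = 0.956). Kif5b was 7.13, 7.31 and 7.00 in CFA paw and 6.93, 7.29 and 7.05 in CFA muscle, with the low values of 5.94, 5.58 and 5.75 on Saline paw replicate 1, Acid muscle replicate 2 and Saline muscle replicate 3. Its result depended on the scaling. Quantile normalization gave 6.67, 6.90 and 6.70 in CFA paw and 7.25, 7.45 and 7.25 in CFA muscle, lower in paw without overlap.

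Grouped by role after their values were seen, 15 kinesins of axonal transport had medians of 0.47 after saline and 0.15 after CFA, with 13 and 12 above 0, and 0 and 3 past the threshold. The 12 kinesins of cell division had medians of -0.08 and -0.34, with 2 and 0 above 0, and none passed in either comparison. Of the transport kinesins 14 of 15 were above the dim limit, and of the cell division kinesins 1 of 12. The lowest value after CFA among the kinesins was -0.59, for Kif19a (adjusted p = 0.0911) and Kif23 (adjusted p = 0.0569), the latter a motor of cytokinesis.

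Of the 7 dynein subunits 1 passed, after CFA. Dync1li1, a light intermediate chain that links dynein to cargo adaptors, was 7.54, 7.59 and 7.62 in CFA paw, 6.85, 7.60 and 7.49 in Saline paw, 5.96, 6.48 and 6.60 in CFA muscle, 6.78, 6.70 and 5.69 in Saline muscle and 6.51, 6.13 and 6.83 in Acid muscle. Every paw array was above every muscle array, though Saline paw replicate 1 exceeded the highest muscle array only narrowly. The difference was 1.23 after CFA (SE 0.286, 2.35-fold, limma adjusted p = 0.0193) and 0.92 after saline (adjusted p = 0.115), or 1.16 without Saline paw replicate 1 (adjusted p = 0.0133). The heavy chain Dync1h1 differed by 0.89, the second light intermediate chain Dync1li2 by 0.77, and the intermediate chains Dync1i1 and Dync1i2 by 0.15 and 0.37 after CFA, none past the threshold. The subunits of the ciliary dynein, Dync2h1 and Dync2li1, had means under the dim limit, Dync2li1 only narrowly, with differences of 0.01 and 0.11.

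As deposited, all 6 dynactin subunits were above 0 in both comparisons, with medians of 0.56 after saline and 0.79 after CFA. None of their deposited CFA groups overlapped, where paw was higher without overlap for 18.9% of all genes. This depended on the scaling. With quantile normalization Dctn2 and Dctn4 stayed higher in CFA paw without overlap, while Dctn1, Dctn3, Dctn5 and Dctn6 overlapped. Dctn5 and Dctn6 were then lower on average in CFA paw. Dctn5 was 6.919, 6.662 and 6.712 in CFA paw and 6.871, 6.746 and 6.997 in CFA muscle. As deposited, Dctn4, a subunit of the pointed end of dynactin, was the 1 that passed. It was 7.05, 7.04 and 7.12 in CFA paw and 5.60, 5.94 and 6.07 in CFA muscle, a difference of 1.20 (SE 0.268, 2.31-fold, limma adjusted p = 0.0155). After saline it was 6.13, 7.19 and 7.18 in paw and 6.45, 6.29 and 5.64 in muscle, so Saline paw replicate 1 lay within the muscle values and the difference of 0.71 did not pass (adjusted p = 0.195), while without that array it was 1.06 (adjusted p = 0.0042). Dctn2, the dynamitin subunit, differed by 1.13 after CFA (adjusted p = 0.059), Dctn3 by 0.86, Dctn1, the p150 subunit that binds microtubules, by 0.72, Dctn5 by 0.52 and Dctn6 by 0.35.

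Other genes of the same machinery were also in part higher in paw neurons. A list of 74 named genes covered microtubule binding, tubulin modification, motor adaptors and light chains. It also held Tubgcp2 to Tubgcp6, which are members and were left out here, and 61 of the others were measured. After saline 4 were higher in paw and 57 did not pass, with a median of 0.42. The share higher was 1.87% over all genes and 2.76% above the dim limit. After CFA 19 were higher, 0 lower and 42 did not pass, with a median of 0.50. Here 5.75% of all genes and 8.46% above the dim limit were higher, and 0.667% of all genes lower. This list was not set beside other genes of the same mean level, and its values under other scalings are not given. The 4 of the saline comparison were Dclk1, a doublecortin relative (2.04), Clip3 (1.69), Dpysl2, also called CRMP2, which promotes axon growth (1.10), and Map7d1 (0.80), and after CFA they differed by 2.33, 2.33, 1.65 and 1.25. Tubulin-modifying enzymes among the 19 were the polyglutamylase subunit Ttll1 (1.67), the tyrosine ligase Ttl (1.32) and the acetyltransferase Atat1 (0.44).

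How far the differences held depended on the scaling of the arrays. The count of 17 members after CFA became 11 with cyclic loess between arrays (5.55% of all genes called), 8 with each array divided by its SD (4.04%), 7 with quantile normalization (3.83%) and 4 in a fit that carries the array SD as covariate (2.23%). Of those 4, Mapt and Tubb4a were higher in paw, and Kif5b (-1.25) and Dync1i2 (-0.84) were lower, where the deposited values gave 0.06 and 0.37. After saline the covariate fit likewise gave 3 higher members (Tubb4a, Mapt and Stmn2) and 1 lower, Dync1i2 at -0.97, where 1.86% of all genes were called. All 17 kept a difference above 0 under each of the 5 other scalings, and Tubb4a and Mapt passed under each of them in both comparisons. After saline, Stmn2 passed under 2 of the 5 and Map1b under 0. With only the 6 saline arrays in the fit no gene passed, Tubb4a included (1.96, limma adjusted p = 0.174).

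The differences were smaller under 4 of the 5 other scalings. For Tubb4a after CFA the difference was 1.47 with quantile normalization, 1.38 with cyclic loess, 1.39 with division by the SD and 1.90 with the covariate, against 2.46 as deposited. On the quantile-normalized arrays Tubb4a ran from 8.23 to 9.12 in muscle and from 9.73 to 10.23 in paw, still without overlap. For Mapt the CFA difference ran from 0.76 with the covariate to 0.94 with cyclic loess in those fits, for Tubb3 quantile normalization gave 1.31, for Stmn2 0.62, for Map1b 0.66, for Kif1a 0.40 and for Stmn3 0.06.

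**Figure D4:**
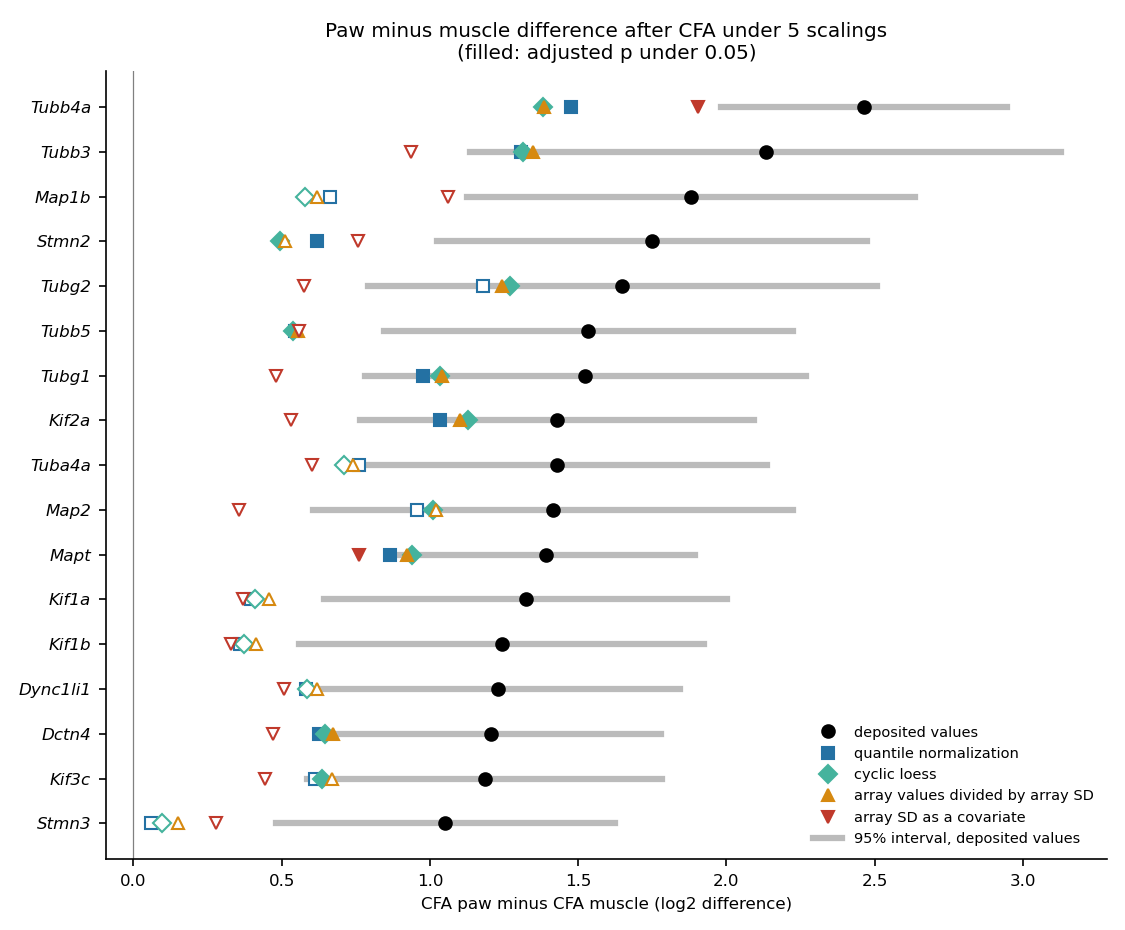
Log2 difference, CFA paw minus CFA muscle, of the 17 members past the threshold under the deposited values, quantile normalization, cyclic loess, division by the array SD and a fit with that SD as covariate, with 95% confidence intervals as bars; filled points have an adjusted p under 0.05. Tubb4a and Mapt are filled under all settings shown, while Stmn3 moves from 1.05 as deposited to 0.06 with quantile normalization.

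The differences also followed the mean level of a gene. Among genes that are not members, the median difference after CFA was -0.11 for mean levels of 2 to 4, 0.28 for 4 to 6, 0.75 for 6 to 8 and 1.34 for 8 to 10. The members in the same ranges had medians of -0.12, 0.33, 0.98 and 1.24 over 26, 16, 20 and 7 genes. After saline the values were 0.25 in other genes and 0.46 in members for 4 to 6, 0.55 and 0.61 for 6 to 8, and 1.08 and 0.89 for 8 to 10. In the brightest range, 10 to 14, the 3 members had medians of 1.58 after saline and 1.75 after CFA, beside 1.19 and 1.20 over 12 other genes. The members' medians thus lay on both sides of those of other genes of their level. Tubb4a, with 2.46, was above the median of its range, and in the brightest range after CFA Stmn2 (1.75) and Map1b (1.88) were above the median of other genes and Tuba1a (1.04) below it.

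**Figure D5:**
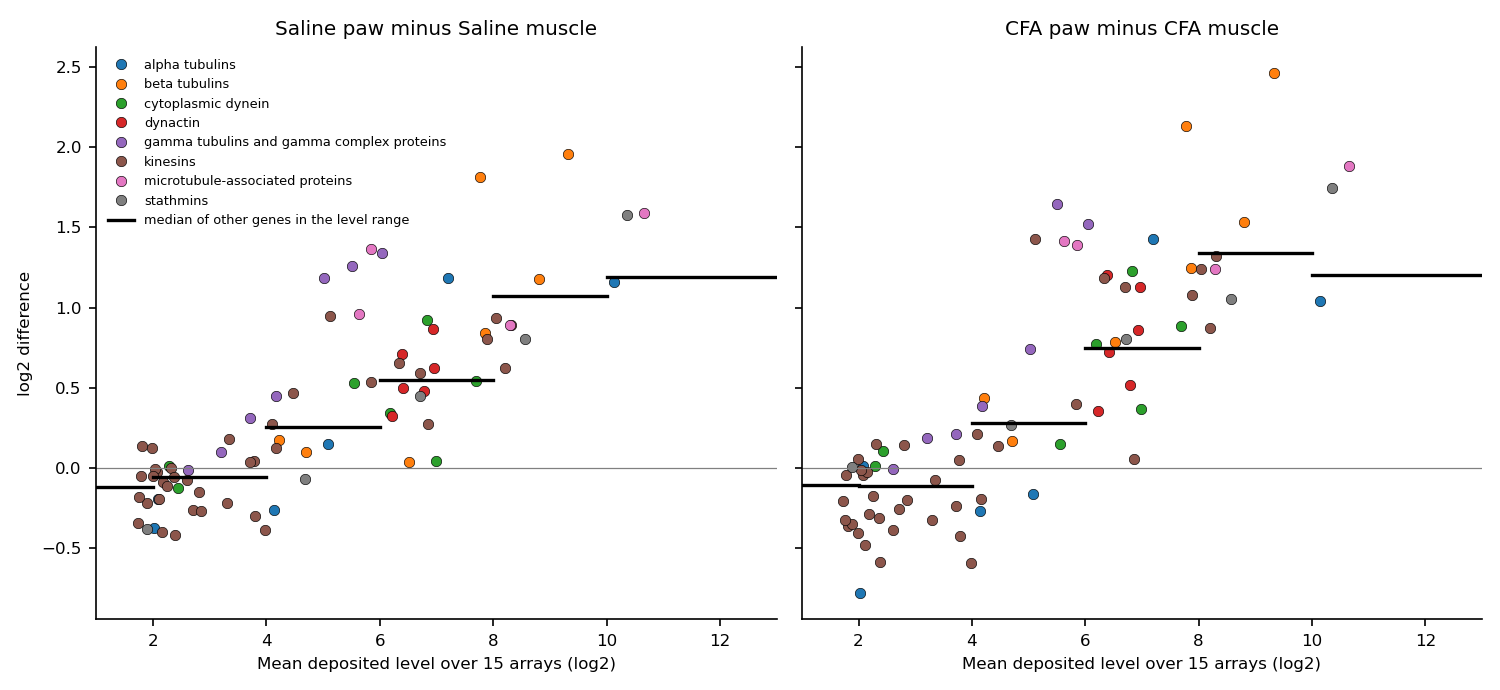
The log2 difference, paw minus muscle, of each member against its mean log2 level over 15 arrays, after saline and after CFA, with the median of all other genes in each level range as a line. The line rises with level, from -0.11 at levels of 2 to 4 to 1.34 at 8 to 10 after CFA, and Tubb4a lies above it in both.

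Most neuronal markers moved in the same direction as the microtubule genes. Of 11 sensory neuron markers measured, 4 were higher in paw after saline and 9 after CFA, beside 1.87% and 5.75% of all genes. All 11 were above 0 in both, with medians of 1.19 and 1.58. Rbfox3, which encodes the neuronal nuclear protein NeuN, differed by 2.27 and 2.61, and Tac1 and Calcb, neuropeptide genes of the labelled CGRP-positive kind of neuron, by 1.96 and 2.70 and by 1.19 and 1.63. Their log2 levels summed over the list were 68.7 to 76.4 on the muscle arrays and 78.7 to 90.6 on the paw arrays. The 9 markers of large myelinated neurons had 3 and 4 higher and sums of 55.0 to 64.6 against 62.7 to 70.3. All 9 were above 0 after saline, while after CFA 7 were above 0 and 2 below, with Pvalb lowest at -0.66. In bulk RNA, fewer neurons in a sort and less RNA of these genes per neuron cannot be told apart, and the part of either in the microtubule differences was not tested.

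Lists of markers of other cells had medians between -0.50 (endothelial and mural cells) and 0.18 (glia) after CFA. The 12 markers of satellite glia and Schwann cells summed to 65.0 to 74.3 on muscle arrays and 65.0 to 72.8 on paw arrays, with 0 past the threshold after saline and 1, Mag, lower in paw after CFA (-0.88). These 12 were mixed, from -1.32 (Mbp) to 0.84 (S100b) after CFA, with 8 above 0 and 4 below. After saline they ran from -0.90 (Cdh19) to 0.88 (S100b), with 6 above 0 and 6 below. Of 10 macrophage markers 7 lay under the dim limit, and their sums were 22.7 to 24.4 in muscle and 21.0 to 24.4 in paw. Endothelial and mural markers summed to 31.0 to 39.4 in muscle and 28.0 to 32.1 in paw, fibroblast markers to 27.6 to 30.5 and 25.4 to 30.1, dividing cell markers to 22.0 to 26.3 and 20.5 to 23.4, and skeletal muscle markers to 18.4 to 20.3 and 16.2 to 19.3. Of these, Top2a of the dividing cell list was lower in paw after CFA (-0.79). All 10 endothelial and mural and all 5 skeletal muscle markers were below 0 in both comparisons. So were 9 of 9 dividing cell, 7 of 8 fibroblast and 9 of 10 macrophage markers after CFA, and 7, 6 and 9 after saline. Beside these, 43.8% of all genes were above 0 after CFA and 47.7% after saline. Paw was lower without overlap after CFA for 6 endothelial and mural and 6 dividing cell markers, beside 17.1% of all genes. The gene behind the CGRP reporter was not analysed here.

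Injection of CFA or acid changed no member past the threshold. For CFA paw against Saline paw, limma called 0 of the 80, and 0 of all genes, and 0 members had an unadjusted p under 0.05, beside 1.21% of all genes. The median difference was 0.08 (-0.37 for Kif16b to 0.51 for Tubb2b), and the 95% interval lay within 1 log2 unit of 0 for 69 members. The groups did not overlap for 2 members, both lower after CFA, beside 2.99% of all genes, and for 0 members higher, beside 1.73%. Tubb4a differed by 0.24 (95% confidence interval -0.24 to 0.72) and Mapt by 0.13 (-0.37 to 0.64).

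In this comparison all 7 beta tubulins (median 0.24) and all 6 dynactin subunits (median 0.15) were above 0, as were all 11 sensory neuron markers (median 0.23). Without Saline paw replicate 1, 3 of the 7 beta tubulins, 0 of the 6 dynactin subunits and 1 of the 11 markers were above 0, with medians of -0.02, -0.23 and -0.14. Over all 80 members 49 were above 0 with that array, beside 47.1% of all genes, and 27 without it.

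CFA muscle and Acid muscle were each compared with the same Saline muscle arrays. After CFA, 0 members passed (limma), beside 0 of all genes, and 3 had an unadjusted p under 0.05, beside 2.6% of all genes. These were the spindle motor Kif11 at 0.38 (95% confidence interval 0.11 to 0.64), the kinesin-2 subunit Kif3b at 0.44 (0.10 to 0.77) and the mitotic depolymerase Kif2c at 0.38 (0.08 to 0.68). Kif11 was 1.98, 2.07 and 2.06 in CFA muscle and 1.62, 1.62 and 1.74 in Saline muscle, without overlap, and it and Kif2c lay under the dim limit. Of the 9 dividing cell markers 8 were above 0 in the same comparison, with a median of 0.31, and none passed. Groups were separate for these 3 members, all higher after CFA, beside 3.63% of all genes, and for 0 lower, beside 4.1%. The members' median was -0.04 with 34 above 0, beside 47.1% of all genes, and 72 intervals lay within 1 log2 unit of 0, Tubb4a at -0.27 (-0.75 to 0.22) among them.

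After acid, 0 members passed (limma), beside 0 of all genes, and Kif13a alone had an unadjusted p under 0.05, at 0.42 (95% confidence interval 0.04 to 0.80), beside 2.85% of all genes. Kif13a was 3.44, 3.99 and 3.34 in Acid muscle and 3.10, 3.08 and 3.34 in Saline muscle. Its highest value was on Acid muscle replicate 2, the array with the narrowest signal range (SD 1.28). Groups were separate for 3 members higher after acid, beside 3.98% of all genes, and for 1 lower, beside 2.94%. The median difference was 0.01 with 41 members above 0, beside 53.7% of all genes, and 73 intervals lay within 1 log2 unit of 0. The highest value was that of Tubb3, 0.68 (95% confidence interval -0.31 to 1.68), and it rested on Acid muscle replicate 3, where Tubb3 was 9.04 against 6.58 and 7.12 on the other Acid muscle arrays and 6.74 to 7.19 in Saline muscle. Acid muscle replicate 3 was also the muscle array with the widest signal range.

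The effects of CFA in muscle and in paw were compared directly as muscle minus paw. Of the 80 members 0 passed (limma), beside 0 of all genes, and 2 had an unadjusted p under 0.05 (Kif11 at 0.50 and Kif2c at 0.53), beside 1.63% of all genes. The median was -0.07 with 32 members above 0, beside 49.8% of all genes, and all 7 beta tubulins were below 0, with Tubb4a at -0.51 (95% confidence interval -1.19 to 0.18). Without Saline paw replicate 1 the median was 0.07 and 3 of the 7 beta tubulins were above 0. The median SE of a member was 0.330 here and 0.233 in the comparisons of groups, and 44 of the 80 intervals lay within 1 log2 unit of 0.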

How the data were processed

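The authors deposited log2 expression of each probe set on 15 Affymetrix arrays, made with RMA in Partek, per the submitters' processing notes, with no version. The log base was inferred from their range (0.397 to 13.76), and the values were used as deposited. Of 35556 probe sets, 21789 had 1 symbol in the platform's probe table, which gave 19938 genes. Nothing in the labels or headers used here gives a scan or hybridization batch.

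Group means were fitted to all 15 arrays with limma 3.58.1 (R 4.3.3, eBayes, residual degrees of freedom 10, prior 4.32), two-sided, with Benjamini-Hochberg adjustment over all genes at 0.05. The fit was tested on simulated data. The number of arrays limits the precision. The members, gene lists, comparisons and alternatives were chosen with earlier results of these data known. Named members were those past the threshold (up to 12 rises and 12 falls) or else the 4 with the smallest p, plus a fixed list of the main members. Tubgcp4, Tubgcp5, Tubgcp2 and Tubgcp6, Tuba3a, Tuba8, Tubb1, Tubal3, Stmnd1, Kif19a, Kif2c, Kif16b, Kif13a and the ciliary dynein genes were named outside that rule, after their values were seen, where it did not name them. Alternatives were scalings, array SD as a covariate, array weights, other priors and thresholds, a dim filter, only the groups compared, the mean of probe sets, a replicate block and leaving out each array.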

Additional observations from a re-analysis of the deposited data

How the results depend on the processing

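The number of arrays and their unequal signal range limit these results. For saline paw against muscle the count of 4 members became 2 with median centring, division by the array SD or an intensity trend with a robust prior, 0 with only the groups compared (0 of all genes), 46 with array weights (37% of all genes called), 2 at an adjusted p under 0.01 (0.431%), 10 under 0.1 (4.49%), and 1 (0.592%) without Saline paw replicate 1 with the array SD as a covariate, a setting chosen after seeing the data. Leaving out each array in turn gave 1 (Saline paw replicate 2, Saline paw replicate 3 or Saline muscle replicate 3) to 35 (Saline paw replicate 1), with 2 without Saline muscle replicate 2 or CFA paw replicate 2, 8 without Acid muscle replicate 2 and 7 without Acid muscle replicate 3. The members' median of 0.18 became 0.036 with the array SD as a covariate, 0.067 with cyclic loess, 0.085 with quantile normalization, 0.086 with division by the SD, 0.27 with median centring, 0.50 above the dim limit, 0.38 with array weights, and 0.16 (without Saline paw replicate 2) to 0.43 (without Saline paw replicate 1) with an array left out.

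For CFA paw against muscle the count of 17 became 11 with cyclic loess, 7 with quantile normalization, 4 with the array SD as a covariate, 8 with division by the SD, 36 with only the groups compared (16.1% of all genes called), 38 with array weights (20.3%), 2 in the setting chosen after seeing the data (1.7%), 4 at an adjusted p under 0.01 (2.13%) and 26 under 0.1 (10.4%). Leaving out each array gave 4 (CFA muscle replicate 1 or CFA paw replicate 1) to 32 (Saline paw replicate 1), with 5 without CFA paw replicate 2 and 10 without CFA paw replicate 3. The median of 0.20 became 0.31 with median centring, 0.079 with the covariate, 0.11 with cyclic loess or quantile normalization, 0.19 with division by the SD and 0.74 above the dim limit. Tubb4a passed in every leave-one-out of both comparisons, and Mapt, Stmn2 and Map1b in every one of the CFA comparison.

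For CFA muscle against Saline muscle the median of -0.04 ran from -0.082 to 0.038 (without CFA muscle replicate 1) with an array left out, and was 0.032 without Saline muscle replicate 1. For the difference of the CFA effects it ran from -0.15 to 0.075 (without Saline paw replicate 1). A call opposite in direction to the deposited values arose for Dync1i2 with the array SD as a covariate (-0.97 after saline, -0.84 after CFA) and for Kif5b after CFA (-1.25 with the covariate, -1.52 with Saline paw replicate 1 left out as well). Signs without a call turned more often: of 80 members, 50 kept theirs after saline and 53 after CFA with the covariate, 57 and 65 with cyclic loess, 58 and 65 with quantile normalization, and 55 and 63 with division by the SD. Over all named members and settings, 7213 values stayed on their side of the threshold, 155 lost a call, 130 gained one and 4 were the opposite calls above. Most of the 7213 had no call to lose. Of 45 named members 4 were called after saline and 17 after CFA in paw against muscle, and 0 in each other comparison. No alternative called a member in the comparisons of CFA or acid with saline. The cause of these shifts was not tested.

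The labels number the replicates of each group alike, but arrays of the same number did not deviate together. Of 30 pairs of arrays with the same number 10 had a correlation of deviations over 0.1, with a median of -0.0448, beside 25 of 60 other pairs and a median of 0.0702. With the replicate number as a block, 2 members passed in the saline comparison and 16 in the CFA comparison.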
